A study of Mus musculus with 2 samples.

Results

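Mir107, Mir103-2 and Mir103-1 are the miRNA genes that lie inside the pantothenate kinase genes of the mouse. They were taken by gene identifier and make up 3 of the 1973 miRNA genes counted in the series. Small RNA was sequenced from whole hearts of B6NCrl mice taken at postnatal day 0. Both libraries belong to a single group: replicate 1 is the heart of pup 2, replicate 2 that of pup 3, and the pups are littermates from pregnant female 1. The sex of the pups was not collected. The labels name no treatment and no engineered allele, so no conditions could be compared. What could be asked was how much of each of the 3 genes the newborn heart contained, and how far this varied between littermates.

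Pantothenate kinases catalyse the committed step in the synthesis of coenzyme A, the carrier of acyl groups in fatty acid and energy metabolism. A miRNA in an intron is released from the transcript of its host gene as a hairpin, which is then cut to a short duplex with a 5p and a 3p arm. The arm that is kept guides silencing through its seed, the bases 2 to 8 from its 5′ end. In mice, miR-103 and miR-107 are known as regulators of insulin sensitivity in liver and fat, and in human cells as repressors of Dicer, the enzyme that cuts miRNA hairpins.

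The 3 annotated hairpins are shown because their likeness bears on how reads can be assigned to a gene. They are RefSeq sequences on build GRCm38.p6, with the mature arms in capitals. All 3 genes matched a RefSeq entry.
Mir107: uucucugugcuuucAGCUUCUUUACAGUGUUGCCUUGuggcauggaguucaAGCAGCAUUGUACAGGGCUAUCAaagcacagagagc
Mir103-2: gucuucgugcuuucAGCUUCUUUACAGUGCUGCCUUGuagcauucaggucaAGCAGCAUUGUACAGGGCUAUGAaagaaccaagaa
Mir103-1: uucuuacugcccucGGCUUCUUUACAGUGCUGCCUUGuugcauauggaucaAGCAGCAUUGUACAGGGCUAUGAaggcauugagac

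The arms lay at the same places in every hairpin, from base 15 to 37 and from base 52 to 74, with 14 bases between them. Over the aligned hairpins Mir103-2 and Mir107 were 83.9% identical, Mir103-1 and Mir107 80.5%, and Mir103-1 and Mir103-2 80.2%. The differences lay mostly outside the arms. Mir103-1 and Mir103-2 have one and the same 3p arm, miR-103-3p. Counted from the 5′ end of the arm, miR-107-3p differs from it by a single substitution, G22C, with the base of miR-103-3p given first. Among the 5p arms, Mir103-1 and Mir103-2 differ by G1A, Mir103-2 and Mir107 by C16U, and Mir103-1 and Mir107 by G1A and C16U. The mature arms are shown with the seed in capitals.
miR-107-3p: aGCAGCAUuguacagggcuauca
miR-103-3p: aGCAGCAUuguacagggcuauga
miR-107-5p: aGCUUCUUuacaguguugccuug
miR-103-2-5p: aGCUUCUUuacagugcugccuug
miR-103-1-5p: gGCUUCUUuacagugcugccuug

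The 3p arms share one seed, and no other mature miRNA in the RefSeq table had it. The 5p arms share another seed, which was likewise found in these 3 genes only.

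The place of each gene within its host was alike. Mir107 (ENSMUSG00000065594) lies at chr19:34820687-34820773 on the minus strand of GRCm38, in an intron of Pank1. Mir103-2 (ENSMUSG00000065563) lies at chr2:131288052-131288137 on the plus strand, in an intron of Pank2. Mir103-1 (ENSMUSG00000065553) lies at chr11:35782396-35782481 on the plus strand, in an intron of Pank3. Each is on the strand of its host, overlaps no annotated exon and overlaps no gene other than the host. In a protein-coding transcript with 7 exons of each host, the miRNA lies between exons 5 and 6. Other annotated transcripts of Pank1 and Pank2 number the flanking exons differently. That intron is 7282 bases long in Pank1, 5801 in Pank2 and 1740 in Pank3. The hairpin starts 326 bases after the upstream exon in Pank1, 454 bases after it in Pank2 and 688 bases after it in Pank3. Pank4, the remaining gene of this family, holds 0 annotated miRNA genes.

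By gene count, Mir107 was among the most abundant miRNA genes of the newborn heart, while the Mir103 genes were counted at low levels. The values are whole numbers of reads on the strand of the gene, called sense counts here, and CPM is that count scaled to 1000000 sense counts on all miRNA genes. Replicate 1 had 2323450 sense counts among 5052766 reads, and replicate 2 had 3487183 among 7441784. Intervals are exact 95% intervals (Clopper-Pearson for CPM and shares). They cover the counting error of reads within 1 library only. The labels name no molecular identifiers that would tell copies of one molecule from separate molecules, so such copies count as separate reads.

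Mir107 had 10535 sense counts in replicate 1 and 17261 in replicate 2. This is 4534 CPM (interval 4448 to 4621) in replicate 1 and 4950 CPM (4876 to 5024) in replicate 2, or 4742 ± 294 CPM (SD, n = 2). It ranked 25 of all genes in replicate 1 and 24 in replicate 2, and took 0.474% ± 0.0294 of all sense counts. The counts leave out reads that aligned to several places, so these ranks are of gene counts and not of mature miRNAs.

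Mir103-2 had 68 sense counts in replicate 1 and 117 in replicate 2. Its level was 29.3 CPM (interval 22.7 to 37.1) in replicate 1 and 33.6 CPM (27.7 to 40.2) in replicate 2, with a mean of 31.4 ± 3.03 CPM. The intervals of both pups overlapped, and the gene ranked 207 and 212.

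Mir103-1 had 4 sense counts in replicate 1 and 10 in replicate 2. Its level was 1.72 CPM (interval 0.469 to 4.41) in replicate 1 and 2.87 CPM (1.38 to 5.27) in replicate 2, with a mean of 2.29 ± 0.810 CPM. It passed the detection limit of 2 CPM in replicate 2 only, and both intervals contain that limit. At these counts its presence above the limit was therefore not settled. For scale, the limit for a gene with no count at all was 1.29 CPM in replicate 1, beside 0.860 CPM in replicate 2.

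**Figure D1:**
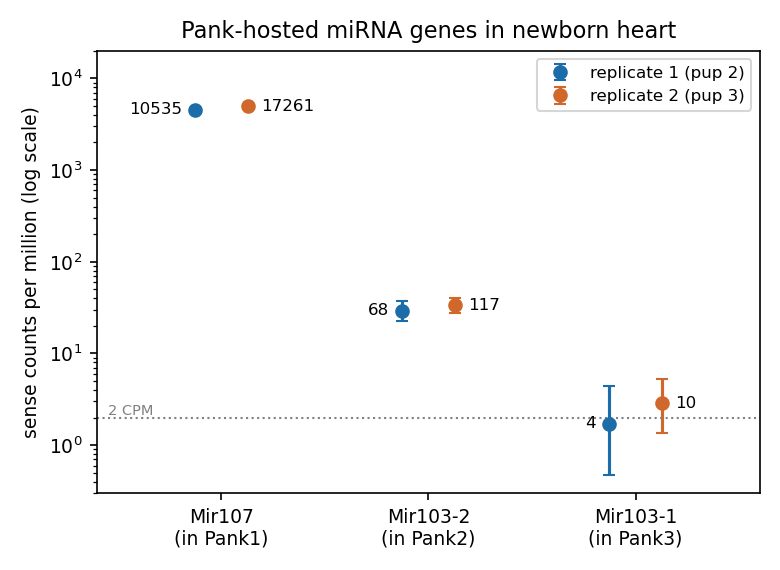
Sense CPM (log scale) of the 3 genes, with 1 point for each pup, exact 95% intervals as bars and the raw count beside each point. Mir107 lies near 4742 CPM in both pups, Mir103-2 near 31.4 CPM, and Mir103-1 around the dotted line at 2 CPM.

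The order of the 3 levels was the same in both pups and the groups of values did not overlap. Mir107 held 99.3% of the counts on the 3 genes in replicate 1 (interval 99.1% to 99.5%) and 99.3% in replicate 2 (99.1% to 99.4%). Mir103-2 held 0.641% (0.498% to 0.812%) in replicate 1 and 0.673% (0.557% to 0.806%) in replicate 2. Mir103-1 held 0.0377% (0.0103% to 0.0965%) in replicate 1 and 0.0575% (0.0276% to 0.106%) in replicate 2. The split among the 3 genes was thus alike in both hearts to within counting error.

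Taken as a ratio within each library, Mir107 had 155 counts for each count of Mir103-2 in replicate 1 (interval 122 to 199.7) and 148 in replicate 2 (123 to 178). On the scale of log2(CPM + 1), the ratio of Mir107 over Mir103-2 was 7.20 ± 0.0456 (SD, n = 2). The ratio of Mir107 over Mir103-1 was 10.51 ± 0.269, and that of Mir103-2 over Mir103-1 was 3.32 ± 0.223. All 3 ratios were well above their spread between pups. With 2 pups the smallest p of an exact sign-flip test, two-sided, is 0.5, so no call was made. The hairpins are 86 or 87 bases long and their arms equally long, so no scaling by length was made. The counts still do not compare directly. A 3p read from base 1 fits a single hairpin from 22 bases for Mir107, but from 25 bases for the Mir103 genes.

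Between Mir103-1 and Mir103-2, which have the same 3p arm, the Pank2 copy took most of the reads given to either gene. It held 68 of 72 counts in replicate 1, or 94.4% (interval 86.4% to 98.5%), and 117 of 127 in replicate 2, or 92.1% (86.0% to 96.2%). These intervals overlap.

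The counts are per gene and do not separate the arms, and they leave out reads that aligned to several places. Such reads numbered 1850176 in replicate 1 (36.6% of reads) and 2757266 in replicate 2 (37.1%). They were 176 times the count of Mir107 in replicate 1 and 160 times in replicate 2. How many of them came from miR-103-3p or miR-107-3p is not recorded.

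The sequences set out which reads could be placed at a single gene. A 3p read of 18 to 21 bases, starting at base 1 of the arm, occurs in all 3 annotated hairpins, whichever of the genes it came from. From 22 bases, which takes in the position of G22C, such a read from Mir107 occurs in the Mir107 hairpin alone. A read of miR-103-3p of 22 to 24 bases still occurs in both Mir103 hairpins, and becomes single only from 25 bases, beyond the annotated arm of 23 bases. A 5p read that starts at base 1 occurs in a single hairpin from 18 bases in each gene. A 5p read that starts at base 2 loses the difference between Mir103-1 and Mir103-2 and occurs in both up to 23 bases. These are exact matches to annotated hairpins, and the rest of the genome was not searched. The mismatches that the authors' aligner allowed are not given in the sources used here. The part that shared sequence has in the low counts of the Mir103 genes was not tested, so the counts of these genes, and any ratio of them to Mir107, are uncertain as levels of the mature miRNAs.

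**Figure D2:**
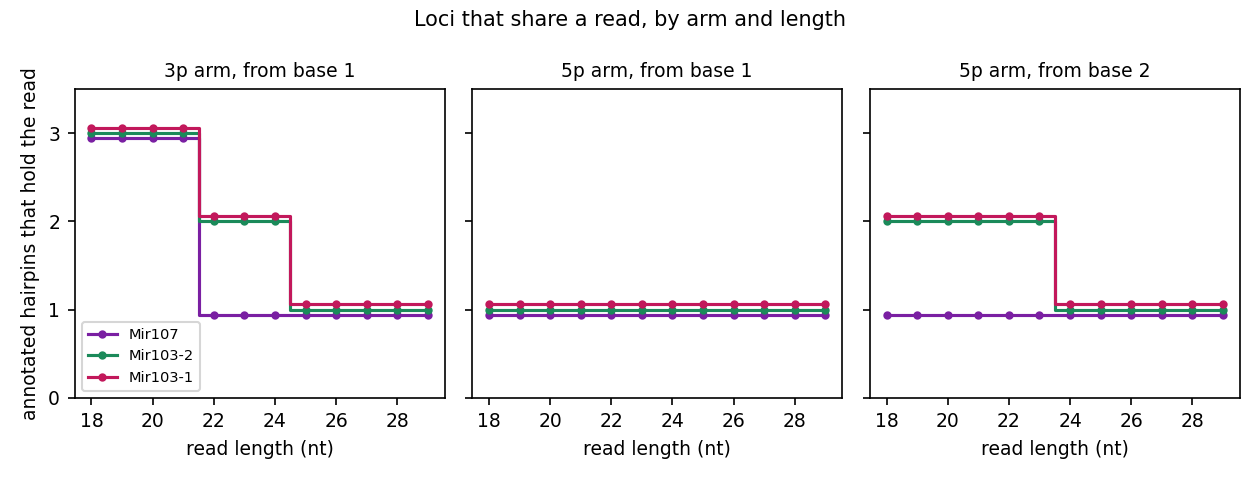
Number of annotated hairpins that hold a read from each gene, against the read length in nt, for the 3p arm from base 1 and the 5p arm from base 1 and base 2. Lines are set slightly apart for legibility. For the 3p arm, Mir107 drops to 1 hairpin at 22 nt and the Mir103 genes at 25 nt.

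The same sorting was done for all 916 counted genes with a RefSeq mature sequence. In 34 of them every annotated arm also occurs at another gene, and in 53, which include Mir103-1 and Mir103-2, this holds for some but not all arms. By mean CPM, Mir103-2 stood at place 27 and Mir103-1 at place 39 of these 87. None of the 87 exceeded Mir107 in mean CPM. Reads that aligned to several places are left out of these counts, so this order is one of gene counts and not of mature miRNAs. The highest were Mir16-1 at 2825 ± 88.8 CPM, Mirlet7f-2 at 2201 ± 21.9 CPM and Mir92-1 at 961 ± 116 CPM. Mir107 belongs to the 21 genes that share no arm but have an arm 1 base away from that of another gene. Of these, 19 reached 2 CPM in both hearts, and 4 exceeded Mir107. The 808 genes with no such likeness in the table held 241 at 2 CPM in both hearts, of which 18 exceeded Mir107. The sorting rests on the annotated arms, and some genes, such as Mir1a-1, had only 1, so this class may hold genes with a shared arm. These are counts of genes and no test was made of them.

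No read was counted on the strand opposite to any of the 3 genes, in either library. The limit for a count of 0 was set at 3 counts over the sense count, which is not a Clopper-Pearson bound. For Mir107, 0 opposite counts beside 10535 in replicate 1 allow a share of up to 0.0285%, and beside 17261 in replicate 2 up to 0.0174%. For Mir103-2 the limits were 4.41% and 2.56%, and for Mir103-1, on 4 and 10 counts, they were 75.0% and 30.0%, so its counts say little on this. Over all miRNA genes the opposite strand held 6.62% of counts in replicate 1 and 6.67% in replicate 2. These are shares of pooled counts and do not say how many genes had none. A lack of opposite counts was not particular to the Pank-hosted genes: Mir26b, with 75775 and 119454 sense counts, also had 0.

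By level, the gene nearest to Mir107 was Mir499, the miRNA in an intron of the myosin gene Myh7b. Likeness was measured as the larger of the differences in log2(CPM + 1) in the 2 libraries, and this was 0.06 for Mir499. Mir499 had 4737 CPM in replicate 1 and 4844 CPM in replicate 2, both within the range of Mir107. It was the only gene whose range over the pups overlapped that of Mir107. Mir652, the next above at 6217 ± 125 CPM, and Mir149, the next below at 4125 ± 384 CPM, lay outside it. Mir100 and Mir149 were the next nearest by this measure, both with a difference of 0.36.

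Mir103-2 stood nearest to Mir410 (66 counts in replicate 1 and 114 in replicate 2), Mir33 (64 and 112) and Mir3074-1 (63 and 106). Mir33, the miRNA in an intron of Srebf2, a regulator of cholesterol synthesis, was thus counted at almost the level of the Pank2 copy. Mir33 shares no annotated arm with another gene, whereas Mir103-2 does, so the likeness is one of counts and may not hold for the mature miRNAs. The ranges of 11 genes overlapped that of Mir103-2, so its place in the order is not distinct. Mir103-1 stood nearest to Mir669h (4 and 11 counts), Mir1188 (5 and 9) and Mir1934 (5 and 8), and 62 genes overlapped it. With 2 samples, such likeness is one of level only.

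**Figure D3:**
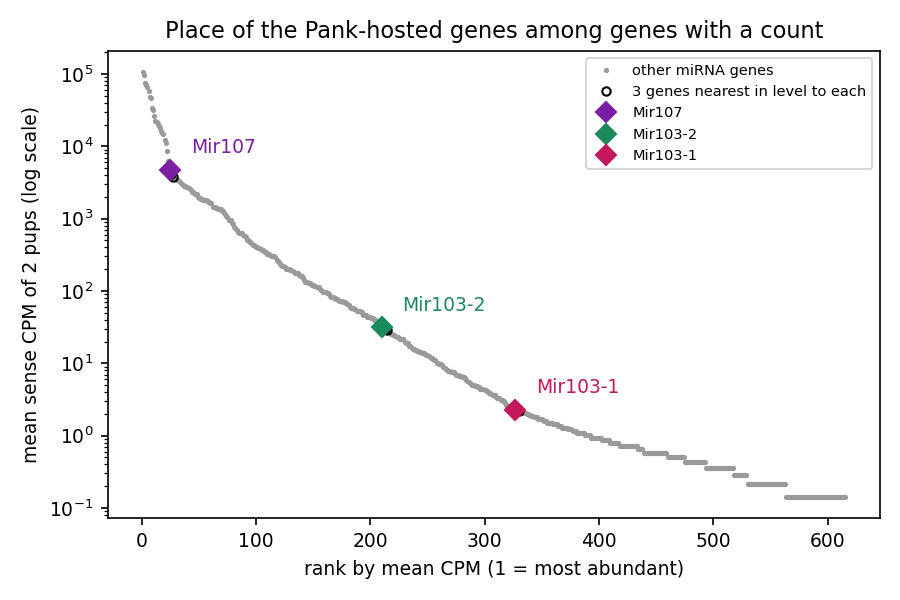
Mean sense CPM of the 2 pups (log scale) against rank, for the miRNA genes with a count. Diamonds are the 3 Pank-hosted genes and open circles are the 3 genes nearest in level to each. Mir107 stands at rank 25, Mir103-2 at rank 210 and Mir103-1 at rank 327.

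The seed of miR-103-3p and miR-107-3p overlaps that of miR-15, miR-16 and their relatives, regulators of the cell cycle and of heart muscle growth. Bases 1 to 7 of miR-107-3p stand at bases 2 to 8 of 10 mature miRNAs at 11 genes in the RefSeq table, of which 10 genes were counted. The arms of the more abundant relatives are shown, with the seed in capitals, to make the shift by 1 base visible against miR-107-3p. The last of them, miR-503-5p, has a related seed that is not identical.
miR-107-3p: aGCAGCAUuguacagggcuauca
miR-322-5p: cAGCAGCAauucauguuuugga
miR-16-5p: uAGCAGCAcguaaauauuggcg
miR-15a-5p: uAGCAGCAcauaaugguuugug
miR-503-5p: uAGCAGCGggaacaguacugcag

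Mir107 was counted above each of these relatives except Mir322, in both pups. Mir322, an X-linked miRNA, had 57177 CPM in replicate 1 and 57828 CPM in replicate 2, which was 12.6 times and 11.7 times the level of Mir107. Mir16-1 followed Mir107 at 2825 ± 88.8 CPM, Mir15a at 2371 ± 65.2 CPM and Mir503 at 1437 ± 19.7 CPM. Mir15b (1273 ± 54.98 CPM) and Mir16-2 (640.5 ± 10.4 CPM), which lie in an intron of Smc4, and Mir195a (1101 ± 63.4 CPM) were lower. None of the ranges of these genes over the pups overlapped that of Mir107. Mir16-1 and Mir16-2 share the arm miR-16-5p, so their counts carry the uncertainty described for the Mir103 genes. Mir195b had 0 counts in both libraries, as had Mir497b, which was listed by its name but whose annotated arm lacks the shared seed. Mir6342, Mir6353 and Mir6419, which have that seed and were not in the list, also had 0 counts, and the other 2 listed names were not analysed here. The 7 relatives with a count together held 6.68% of sense counts in replicate 1 and 6.75% in replicate 2. Mir103-2 and Mir103-1 lay below all 7 relatives that had a count.

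**Figure D4:**
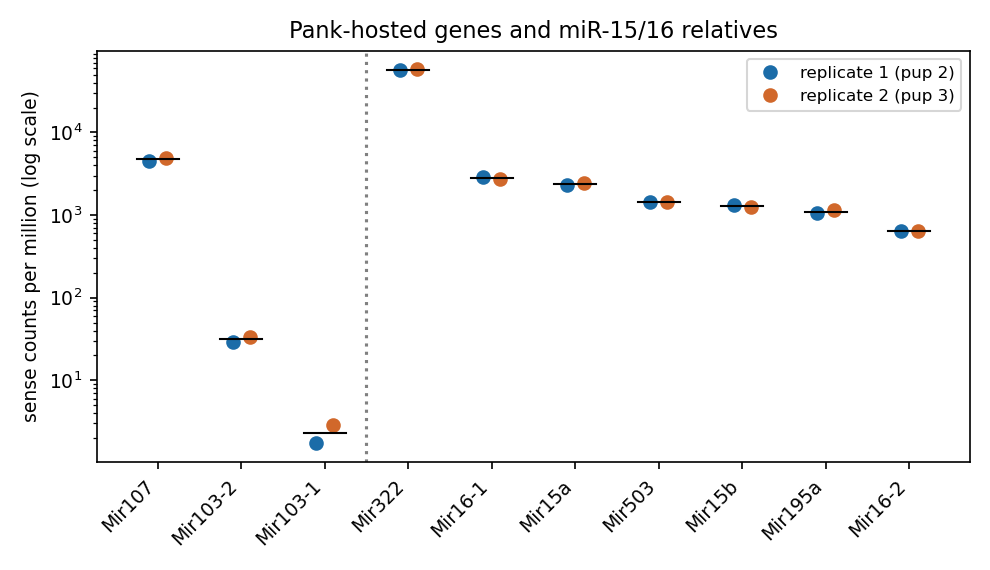
Sense CPM (log scale) of the 3 Pank-hosted genes, left of the dotted line, and of the 7 miR-15/16 relatives with a count, to its right. There is 1 point for each pup and a bar at the mean. Mir322 alone stands above Mir107, and the Mir103 genes stand below all of the relatives.

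Among 31 counted miRNA genes that were listed as lying in introns of other protein-coding genes, Mir107 was near the top. The 5 that exceeded it in both pups were Mir335 in Mest (75832 ± 4024 CPM), Mir208b in Myh7 (69793 ± 490 CPM), Mir30e in Nfyc (45935 ± 204 CPM), Mir26b in Ctdsp1 (33434 ± 1161 CPM) and Mir208a in Myh6 (14939 ± 1397 CPM). Mir499 crossed it, and the other 25 lay below it in both pups. The nearest below were Mir93 in Mcm7 at 3472 ± 141 CPM and Mir139 in Pde2a at 3354 ± 225 CPM. The median of the 31 was 354 CPM, and together they held 26.2% of sense counts in replicate 1 and 26.8% in replicate 2.

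Of 17 counted miRNA genes listed for their links to lipid and glucose metabolism, 14 lay below Mir107 in both pups. The list held 20.8% of sense counts in replicate 1 and 21.9% in replicate 2. Those above Mir107 were Mir143, the miRNA of smooth muscle, at 98576 ± 2705 CPM, with Mir335 and Mir26b. Mir27b, a miRNA with targets in lipid metabolism, had 2263 ± 76.7 CPM, so Mir107 was 2.05 times higher than Mir27b in replicate 1 and 2.14 times in replicate 2. Mir148a had 1652 ± 51.1 CPM and Mir34a 404 ± 12.8 CPM. Mir29a had 347 ± 62.6 CPM, Mir122, the liver miRNA, 50.6 ± 4.58 CPM, and Mir802 had 0 counts. Mir29b-1, which shares an arm with another gene, had 4 and 3 counts. By count, the Mir103 genes were in this low range: Mir103-2 lay beside Mir33 at 29.8 ± 3.23 CPM.

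The level of Mir107 differed a little between the 2 libraries, by more than read-counting error. The libraries were set against each other gene by gene with a two-sided exact binomial test on TMM-scaled sizes, adjusted by Benjamini-Hochberg over the 615 genes with a count. The test sets these libraries against counting error alone and estimates no spread between animals. With 1 library for each heart, pup and library preparation cannot be told apart, and copies made by PCR count as separate reads. It called 86 of the 615 genes (14.0%), of which 31 (5.04%) were higher and 55 (8.94%) lower in replicate 1. Of the 3 Pank-hosted genes, only Mir107 was called, and 1 of 3 is too few to set against that share. It was lower in replicate 1, with a log2 ratio of replicate 1 over replicate 2 of -0.11 (adjusted p = 8.96e-09, exact binomial test), or 0.927 times the level (interval 0.904 to 0.949). Among the 193 genes whose mean reached 50 CPM, 37.8% were called and the median absolute log2 ratio was 0.11. In 48.7% of them the absolute ratio was smaller than in Mir107, whose difference was thus of ordinary size. Markers of epithelium moved the same way. The 7 listed, none at 0, had a sum of 208 CPM in replicate 1, beside 631 CPM in replicate 2. Of these, 6 passed the test as lower in replicate 1. Among the other marker genes, Mir143 of smooth muscle was also called lower. Mir126a of endothelium, Mir208a of muscle and Mir144 of erythroid cells were called higher in replicate 1. The part of any of these cell types in the difference in Mir107 was not tested. Fewer cells of a type and less RNA per cell cannot be told apart in whole hearts.

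Mir103-2 had a log2 ratio of -0.18 (adjusted p = 0.821, exact binomial test), with an interval of 0.644 to 1.20 times. Mir103-1 had -0.50 (adjusted p = 0.925, exact binomial test), with an interval of 0.139 to 2.11 times. Neither passed the test, and at 4 to 117 counts the intervals leave room for differences larger than that of Mir107. Values of both genes were lower in replicate 1, as for Mir107.

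For the lists, the share called over all 615 genes was 5.04% higher and 8.94% lower in replicate 1, and 37.8% in either direction among the 193 genes at 50 CPM or more. Of the miR-15/16 relatives, 7 could be tested, all at 50 CPM or more, and 3 were called. Mir15b (log2 ratio 0.10) and Mir16-1 (0.08) were higher in replicate 1, and Mir195a (-0.10) was lower. Their median log2 ratio was 0.00, beside -0.02 over all genes tested. In the intronic list 6 of 31 were higher and 5 lower in replicate 1, with a median of 0.00. In the metabolic list 1 of 16, Mir144, was higher and 5 were lower, with a median of -0.05. The lower ones were Mir143, Mir335, Mir26b, Mir29a and Mir375. Called genes were thus no rarity at these levels, and nothing particular to a list is read from its count.

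**Figure D5:**
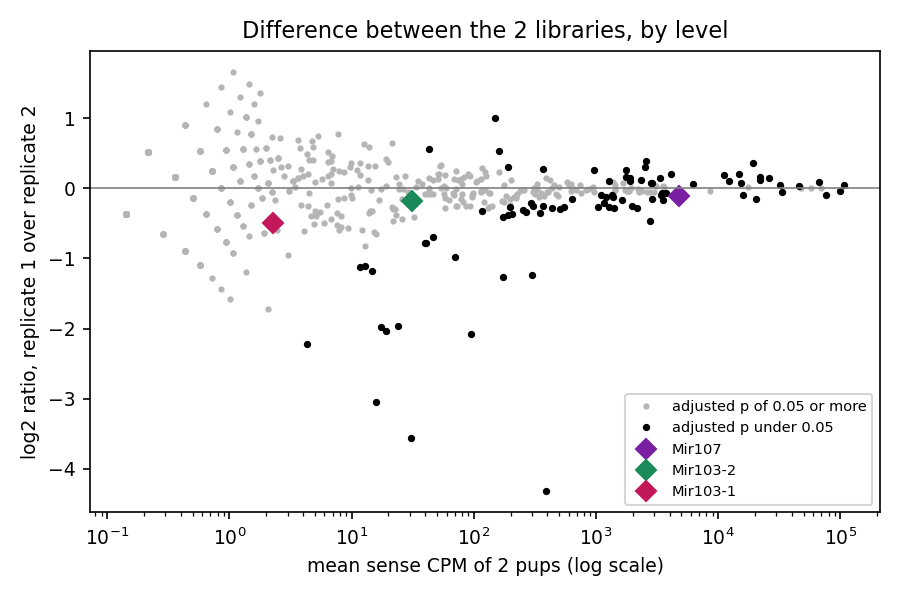
Log2 ratio of replicate 1 over replicate 2, after TMM scaling, against mean sense CPM (log scale) for the 615 genes with a count. Black points have an adjusted p under 0.05 by the exact binomial test. Mir107 lies just below 0 at -0.11, and the Mir103 genes lie among points that did not pass.

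The labelled tissue was checked against its miRNA markers. The heart miRNAs Mir208a, Mir208b and Mir499 were abundant, whereas Mir1a-1, Mir133a-1, Mir133a-2 and Mir133b had 5 to 25 counts. Mir206, also on the muscle list, had 61 counts in replicate 1 and 58 in replicate 2. Reads that aligned to several places are left out of the counts, but their part in the low counts of Mir1a-1 and the Mir133 genes was not tested. In the sorting by annotated arms, Mir1a-1 and Mir133b fell in the class with no such likeness, which may hold genes with a shared arm. The low counts are uncertain as levels of the mature miRNAs, and absence from the heart is not read from them. The 8 counted muscle markers held 9.02% of sense counts in replicate 1 and 8.90% in replicate 2. Mir126a of endothelium held 10.8% in replicate 1 and 10.6% in replicate 2, and the 2 smooth muscle markers 9.83% and 10.2%. The 3 erythroid markers summed to 705 and 608 CPM, the 3 counted white blood cell markers to 536 and 498 CPM, and Mir122 of liver had 53.8 and 47.3 CPM. The 5 counted neuronal markers were all at 0.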

How the data were processed

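The deposited values are counts, whole numbers of reads for each of 1973 miRNA genes, not normalized. Each gene has 3 columns, for sense reads, opposite-strand reads and their sum, and that sum held in every gene; sense reads were used. Per the labels, inserts were under 30 nt and the assembly was mm10. The genes counted are those of GENCODE M4, per notes deposited beside the tables. The aligner, counter and settings are not given in the sources used here. The 4 summary rows entered neither library sizes nor tests. In replicate 1 and replicate 2 these gave 36.6% and 37.1% of reads as aligned to several places, 11.5% and 10.5% as unmapped, 5.93% and 5.62% as on no sense feature, and 0 as ambiguous.

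Identifiers were matched to GENCODE M21 (1894 matched and 79 did not, and these had 0 counts). Sequences came from RefSeq, GRCm38.p6. Scaling used edgeR 4.0.16 and DESeq2 1.42.0, and tests scipy 1.17.1. With 1 library per pup, edgeR's quasi-likelihood test has no residual degrees of freedom, so the exact binomial test was used at an adjusted p of 0.05. CPM was computed over sense counts on all miRNA genes. Log2 ratios used a pseudocount of 1 CPM. On simulated data for this test (615 genes), 35.0% of 100 genes changed 1.5-fold and 43.0% of 100 changed 3-fold were called over all levels, against 96.7% of 30 and 100% of 28 at 50 CPM or more, a level that Mir103-2 and Mir103-1 did not reach. Of 415 unchanged genes 0 were called. The simulated counts varied by counting error alone, which the test assumes. They give no rate of calls that arise from differences between animals or preparations. The p-values measure departure from read-counting error between 2 libraries, not a spread between animals. Named genes were the members, the 3 nearest in level to each, the listed genes, the marker genes, and the 3 highest genes with a shared arm. Mir652 was named after its values were seen. Alternatives covered the denominator, strand, scaling, pseudocount, count filter and leaving out a pup. The members and lists were chosen with earlier results of these data known.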

Additional observations from a re-analysis of the deposited data

How the results depend on the processing

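Of 88 recomputed values for 22 results, 72 stayed within the spread between pups or on the same side of the test, and none changed direction. With 2 pups, leaving out 1 moves a level, share or ratio by less than the SD, whatever the data. The opposite-strand shares were 0 in both libraries and could not move either. These recomputed values were thus fixed in advance to stay, and they say nothing on how stable the results are. Over the total of both strands, Mir107 had 4427 CPM, whether sense or both-strand counts were used. Over all reads, with summary rows included, the levels were 2202 CPM for Mir107, 14.6 CPM for Mir103-2 and 1.07 CPM for Mir103-1, because this total is larger. With both strands, Mir107 ranked 26 and Mir103-2 222. Leaving out 1 pup, the rank of Mir107 was 24 to 25. The pseudocount moved ratios that rest on the few counts of Mir103-1. With 2 CPM the log2 ratio of Mir107 over Mir103-1 was 10.12, and with none it was 11.06. For Mir103-2 over Mir103-1 it was 3.54 with 0.5 CPM, 2.97 with 2 CPM and 3.82 with none. The number of called genes was 79 to 97 over the scalings and count filters tried, beside 86, and Mir107 passed under each scaling tried. Both-strand counts gave shares of 6.34% for the miR-15/16 relatives, 19.9% for the metabolic list and 24.7% for the intronic list. Mir103-1, at 4 and 10 counts, is limited by depth and by the omission of reads that aligned to several places. The single litter limits the spread to littermates. No paired analysis was possible because the series holds 1 group.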

Other observations

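A miRNA arm annotated at exactly 2 counted genes was found 36 times, and for 21 of these arms the counts of both genes summed to 2 CPM or more. This set was put together after the values were seen. By that sum, Mir103-2 and Mir103-1 stood at place 16, at 33.7 CPM, below the median of the 21 at 127 CPM. In 7 of the 21, 1 gene held at least 90% of the counts in both pups, as Mir103-2 did. Mir92-1, of the miR-17 cluster, held 98.7% of its pair in replicate 1 and 98.4% in replicate 2, and Mir181b-2 held 99.0% and 99.2%. Mir128-1 in R3hdm1 held 92.3% and 92.5% beside Mir128-2 in Arpp21. Others were divided nearly evenly, such as Mir194-1 with 54.96% and 54.3% and Mir138-2 with 53.7% and 52.3%. These sums include reads of the arm that is not shared, and they leave out reads that aligned to several places. The sums and splits are therefore of gene counts and not of the shared arm.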
